A study of Mus musculus with 9 samples.

Results

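The 40 genes described here code for heat shock proteins and chaperones: HSP70, HSP110, HSP90, small heat shock proteins, J proteins, mitochondrial and TRiC chaperonins, their cochaperones, and 2 heat shock factors. They were taken by gene symbol from a list chosen with earlier results of these data known. All 40 of 40 were among the 17398 genes tested, of 33641 genes in the table. Expression was measured by stranded poly(A) RNA-seq in 9 brains from untreated mice aged 7.5 months, 3 each of wild type (WT), PG9V and PG9VN. Each library came from a separate mouse, from a dissected block holding thalamus, hypothalamus and midbrain, and the study models neuronopathic Gaucher disease, a lysosomal storage disorder.

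The labels name the genotypes and do not spell out their alleles. Background knowledge, rather than any label, has it that both mutant lines lack progranulin (Grn). Grn measured 50.1 ± 4.77 CPM (depth-normalized counts, mean ± SD, n = 3) in WT, 3.89 ± 1.15 in PG9V and 4.17 ± 0.567 in PG9VN. The labels give no sex, litter or batch, and because tissue blocks were used, fewer cells of a type and less RNA per cell cannot be told apart.

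Chaperones bind unfolded segments of other proteins and let them fold, hold them soluble or hand them to degradation. HSP70 proteins cycle between binding and release with ATP; J proteins bring the clients and start the cycle, and HSP110 proteins and BAG proteins reset it by exchanging the nucleotide. HSP90 takes partly folded clients from HSP70 through adaptor cochaperones, and the small heat shock proteins bind unfolding proteins without ATP. Many of the genes are switched on together by the transcription factor Hsf1, which binds the heat shock element, inverted repeats of a GAA unit.

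In PG9VN against WT, 9 of the 40 genes fell and 3 rose. The 9 were all 3 HSP110 genes (Hspa4l, Hsph1 and Hspa4), the stress-responsive HSP90 gene Hsp90aa1, the cochaperones Stip1 and Chordc1, the J proteins Dnajc6 and Dnajc5, and the divergent HSP70 Hspa12a. The 3 were the small heat shock genes Hspb6 and Hspb8 and the HSP70 gene Hspa2. The members called lower were 22.5% of the list, against 7.22% of all genes tested, and those called higher were 7.5%, against 11.5%. Because earlier results were known when the list was chosen, these shares describe it and are no independent test. The median log2 fold change of the 40 was -0.17, beside 0.02 over all genes tested. A call throughout is a Benjamini-Hochberg adjusted p under 0.05 from edgeR's quasi-likelihood test over all genes, and a fold change is given on the log2 scale with its standard error.

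Heat shock elements are shown first, for genes whose levels are described below. They come from the RefSeq promoter table (build GRCm38.p6, 250 bases before to 50 after each start), which holds 33 of the 40 genes; Cryab, Dnajc5, Hsf1, Hsp90aa1, Hsp90ab1, Hspa8 and Hspa9 have no entry. Capitals mark the GAA and TTC units of an element, lower case all other bases, and each sequence is on the strand of its gene, 5′ to 3′.
Hsph1, chr5:149636287-149636316, bases 21 to 50 after the start, with a 3-unit element: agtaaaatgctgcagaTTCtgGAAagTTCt
Hsph1, chr5:149636337-149636396, the 60 bases before the start: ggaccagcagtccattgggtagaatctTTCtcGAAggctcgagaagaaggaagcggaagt
Chordc1, chr9:18292260-18292289, 30 bases across the start, with 5 units in a row: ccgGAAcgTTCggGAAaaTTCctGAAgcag
Dnajb6, chr5:29735838-29735897, the 60 bases before the start: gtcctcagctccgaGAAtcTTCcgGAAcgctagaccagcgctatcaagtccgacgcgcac
Hspe1, chr1:55088048-55088147, the 100 bases before the start, with 4 units: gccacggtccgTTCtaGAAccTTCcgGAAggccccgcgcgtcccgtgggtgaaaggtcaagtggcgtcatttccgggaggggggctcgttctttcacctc
Hspa1a, chr17:34972157-34972276, the 120 bases before the start: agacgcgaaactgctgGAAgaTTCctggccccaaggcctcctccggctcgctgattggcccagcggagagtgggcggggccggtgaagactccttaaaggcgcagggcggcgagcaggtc
Hspa4l, chr3:40745513-40745612, the 100 bases before the start, with no unit pair: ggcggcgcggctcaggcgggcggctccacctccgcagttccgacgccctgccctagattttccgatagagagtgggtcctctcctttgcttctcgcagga

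The 3-unit form searched was GAANNTTCNNGAA or its reverse complement TTCNNGAANNTTC. It was present in the promoters of 5 of the 33 genes (15.2%: Chordc1, Dnajb6, Hspd1, Hspe1 and Hsph1) and in those of 179 of 27025 genes in the table (0.662%). The 2-unit form, GAANNTTC or TTCNNGAA, which is contained in the longer one, was present in 15 of 33 (45.5%) against 17% of all genes. Of the 9 genes that fell, 7 have an entry, and 2 of these 7 (Chordc1 and Hsph1) hold either form, while Hspa4, Hspa4l, Stip1, Dnajc6 and Hspa12a hold neither in this window. Hspb6 and Hspb8, which rose, hold only the 2-unit form, Hspb6 in 1 of the 2 promoters listed for it, and Hspa2, the third gene that rose, holds neither form. The element of Hspe1 lies in the stretch it shares, on the opposite strand, with Hspd1, its partner in the mitochondrial chaperonin. The same bases are therefore counted for both genes in the shares above. A match describes letters and not binding.

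Replicate numbers here follow the order of the samples in each group and do not match animals between groups. Several libraries stood apart in region markers. In PG9VN replicate 2 the list of 7 hypothalamic neuropeptide and related genes was 3.13 log2 units below the WT mean, whereas PG9VN replicates 1 and 3 were 0.91 and 1.30 above it, and 7 cortex and hippocampus genes were 1.42 above it against -0.70 and -0.59. Its midbrain list stood at -2.88, but PG9VN replicates 1 and 3 were low as well, at -0.99 and -2.01, against 0.06, -0.43 and 0.36 in WT. Of the 6 midbrain genes, 3 were called lower in PG9VN against WT. PG9V replicate 3 stood at 2.47 in 6 cerebellar genes, where the other libraries lay from -1.20 to 0.19, and WT replicates 1 and 2 stood at 1.40 and -1.48 in 4 choroid plexus genes. In 5 striatal genes PG9VN replicates 1 to 3 stood at 1.17, -1.58 and 1.18, and WT replicates 1 to 3 at -0.12, 0.96 and -0.85. Libraries other than PG9VN replicate 2 thus differed in region markers as well. Counts of called members are also given without PG9VN replicate 2. Without it, 13.4% of all genes were called higher and 11.4% lower in PG9VN against WT, and 18 members were called lower and 2 higher. The Y-linked gene Ddx3y had 13 counts in WT replicate 1 and 8 in PG9V replicate 2, and 1173 to 2466 in the other 7 libraries, so the share of animals with Y-linked counts was unequal between groups. Without those 2 libraries Hspa4, Hsph1, Hsp90aa1, Hspa12a, Dnajc5 and Hspa2 were no longer called in PG9VN against WT (adjusted p of 0.065 to 0.181), at log2 fold changes of -0.41, -0.66, -0.58, -0.57, -0.27 and 0.51.

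All 3 HSP110 genes fell. Hspa4l, an HSP110 family nucleotide exchange factor, measured 279, 250 and 275 CPM in the WT libraries, 190, 191 and 201 in PG9V and 148, 109 and 123 in PG9VN. The 3 groups do not overlap in any pair, and PG9VN was below PG9V in every library. The change in PG9VN against WT was -1.08 ± 0.11 (adjusted p = 0.000323), a level 52.7% lower. Against PG9V it was -0.62 ± 0.11 (adjusted p = 0.0234), the only member called in that comparison, where 0.667% of all genes were called lower and 2.72% higher.

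Hsph1, the heat-inducible HSP110 protein, measured 322, 362 and 268 CPM in WT, 193, 251 and 213 in PG9V and 198, 231 and 170 in PG9VN. The mutant libraries all lay below the lowest WT library, and PG9V and PG9VN overlapped. The change in PG9VN against WT was -0.67 ± 0.16 (adjusted p = 0.0178). Hspa4, the third gene of the family, changed by -0.41 ± 0.08 (adjusted p = 0.00741), from 253, 257 and 247 CPM in WT through 203, 215 and 211 in PG9V to 198, 196 and 176 in PG9VN. Its groups did not overlap in any pair either.

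The ratio of Hspa4l to Hspa4 counts within a library, a comparison of paralogs that library size does not touch, was 1.06 ± 0.077 in WT, 0.926 ± 0.032 in PG9V and 0.667 ± 0.098 in PG9VN (SD, n = 3). Hspa4l therefore stood lower against its paralog in every PG9V library than in every WT library, and lower again in every PG9VN library. An exact two-sided permutation test gave p = 0.1 for each pair of groups, the smallest value that 3 against 3 allows, and 0.18 after adjustment over the 18 ratio tests made. The ratio of Hsph1 to Hspa4 overlapped between groups.

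HSP90 has an inducible gene, Hsp90aa1, and a constitutive one, Hsp90ab1. Hsp90aa1 measured 1104, 1079 and 1035 CPM in WT, 768, 901 and 835 in PG9V and 742, 803 and 582 in PG9VN. The WT libraries were all above every mutant library. The change in PG9VN against WT was -0.60 ± 0.13 (adjusted p = 0.0130). Hsp90ab1 measured 1269 ± 51.2 CPM in WT, 1133 ± 30.5 in PG9V and 1123 ± 221 in PG9VN, and was not called (-0.18 ± 0.14, adjusted p = 0.407). Its PG9VN libraries spread from 960 to 1375 CPM, the highest being replicate 2, and without that library it was called lower (-0.35, adjusted p = 0.0114). The ratio of Hsp90aa1 to Hsp90ab1 was 0.845 ± 0.0162 in WT, 0.736 ± 0.0393 in PG9V and 0.636 ± 0.0717 in PG9VN, with no overlap of either mutant group with WT. Its exact permutation p was 0.1 for each mutant group against WT, 0.18 adjusted.

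Of 4 cochaperones, 2 fell. Stip1, which couples HSP70 to HSP90, measured 201, 212 and 188 CPM in WT, 154, 185 and 169 in PG9V and 141, 140 and 122 in PG9VN, a change of -0.57 ± 0.10 in PG9VN against WT (adjusted p = 0.00452). Chordc1, an HSP90 cochaperone, measured 88.2, 85.6 and 78.7 CPM in WT, 61.5, 73.7 and 69.0 in PG9V and 62.0, 52.1 and 56.9 in PG9VN, a change of -0.56 ± 0.10 (adjusted p = 0.00425). For both, every mutant library was below every WT library, though neither gene was called in PG9V against WT. Ahsa1, which speeds the ATPase of HSP90, and Stub1, a ubiquitin ligase that works on HSP70 and HSP90 clients, were not called (-0.14 ± 0.14 and 0.05 ± 0.10). Without PG9VN replicate 2, Ahsa1 was called lower against WT (-0.35, adjusted p = 0.00854) and against PG9V (-0.30, adjusted p = 0.0448).

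Of the 3 small heat shock genes on the member list, 2 rose. Hspb1, Hspb2, Hspb3, Hspb7 and Hspb11, which are not on that list, were tested and not called in PG9VN against WT. Hspb1 changed by 1.40 ± 0.43 (adjusted p = 0.0542), with PG9VN replicates 1 to 3 at 13.9, 39.4 and 14.6 CPM. Hspb6 measured 5.82, 4.81 and 4.88 CPM in WT, 8.17, 9.08 and 7.92 in PG9V and 9.17, 14.9 and 10.4 in PG9VN, a rise of 1.15 ± 0.19 (adjusted p = 0.00332), or 2.22-fold. The groups did not overlap in any pair. Hspb8, which works with Bag3 to route proteins to autophagy, measured 19.0, 15.7 and 19.1 CPM in WT, 25.8, 27.6 and 20.8 in PG9V and 27.5, 33.9 and 33.5 in PG9VN, a rise of 0.82 ± 0.14 (adjusted p = 0.0037). Every mutant library was above every WT library. Cryab, the most abundant of the 3 genes, was not called: 110, 92.3 and 73.8 CPM in WT against 92.9, 156 and 78.8 in PG9VN (0.25 ± 0.25, adjusted p = 0.54), and -0.10 (adjusted p = 0.724) without PG9VN replicate 2. Relative to Cryab, Hspb6 had a ratio of 0.0571 ± 0.00787 in WT, 0.0751 ± 0.0072 in PG9V and 0.108 ± 0.0201 in PG9VN, again without overlap (exact permutation p of 0.1 for each pair of groups, 0.18 adjusted). The ratio of Hspb8 to Cryab was 0.201 ± 0.0505, 0.22 ± 0.00272 and 0.313 ± 0.105 and overlapped in every pair of groups (exact permutation p of 0.2 for PG9VN against WT, 0.24 adjusted). Bag3, the partner of Hspb8, measured 12.9, 13.0 and 15.1 CPM in WT and 15.3, 21.7 and 18.3 in PG9VN, so its libraries did not overlap. It was not called (0.43 ± 0.14, adjusted p = 0.0589), nor was it without PG9VN replicate 2 (0.29, adjusted p = 0.0972). Of 20 alternative analyses, 3 called it. Bag1 (0.10 ± 0.15) and Bag2 (-0.21 ± 0.13), other nucleotide exchange factors, were not called.

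**Figure D1:**
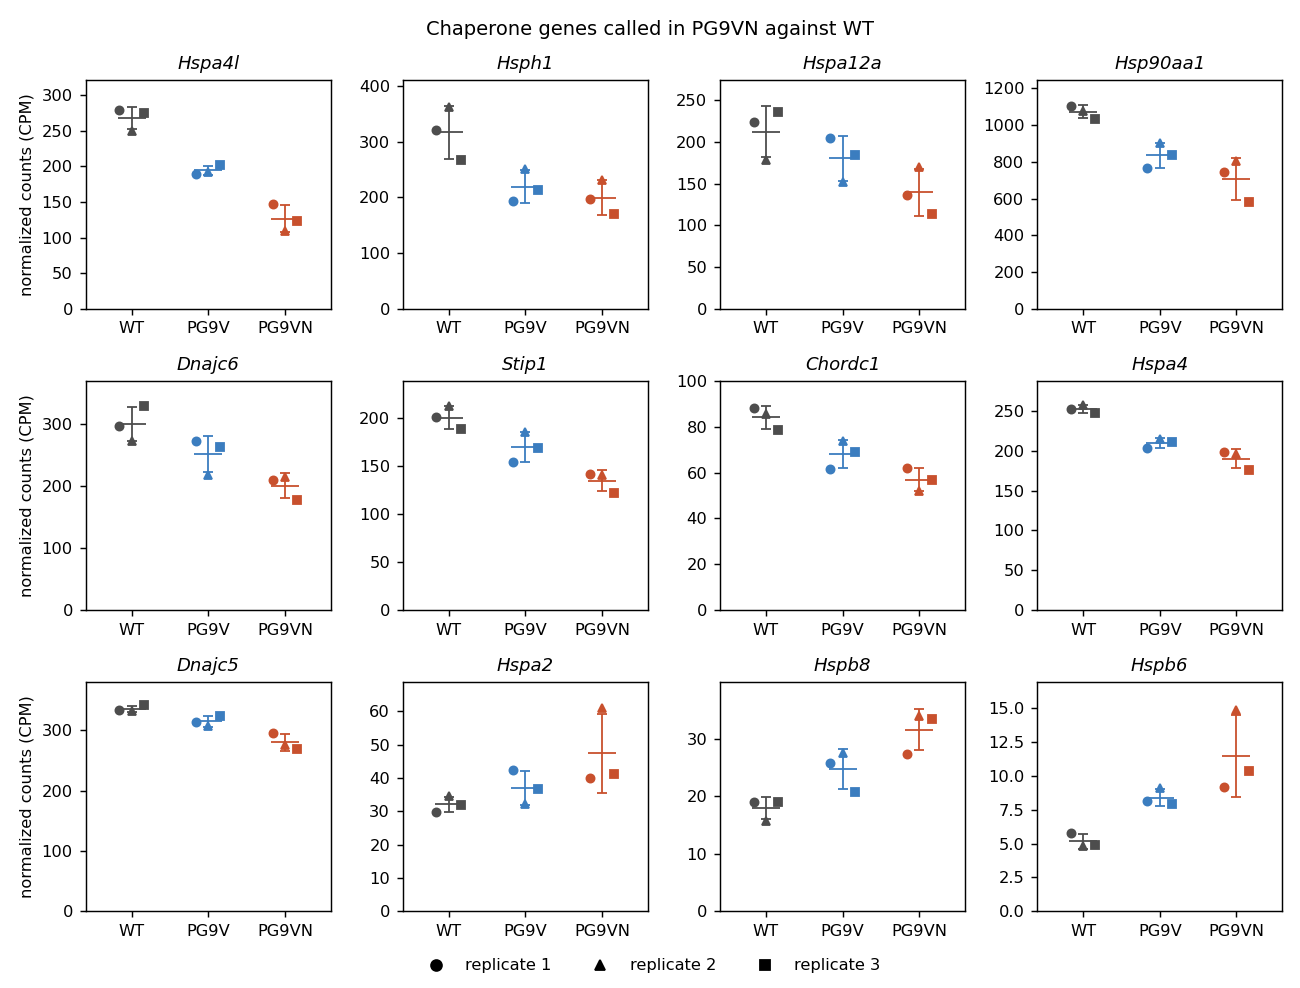
Normalized counts (CPM, linear axes from 0) of the 12 chaperone genes called in PG9VN against WT; each point is 1 library, the bar the mean and its whiskers the SD (n = 3). Hspa4l runs from 250 to 279 CPM in WT down to 109 to 148 in PG9VN, while Hspb6 runs from 4.81 to 5.82 up to 9.17 to 14.9.

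Among the 5 HSP70 genes, Hspa2, a form best known from testis, rose from 29.8, 34.5 and 31.9 CPM in WT to 40.01, 60.9 and 41.2 in PG9VN (0.56 ± 0.17, adjusted p = 0.0471). The highest value was PG9VN replicate 2, and without that library the gene was not called (0.34, adjusted p = 0.0565). Hspa8, the constitutive HSP70 and the most abundant member per kilobase of transcript, measured 1760, 1944 and 1558 CPM in WT, 1408, 1620 and 1519 in PG9V and 1296, 1669 and 1149 in PG9VN, and was not called (-0.35 ± 0.15, adjusted p = 0.139). It was called lower without PG9VN replicate 2 (-0.52, adjusted p = 0.00983). The ratio of Hspa2 to Hspa8 was 0.0184 ± 0.00184 in WT and 0.0344 ± 0.00308 in PG9VN, with PG9VN replicates 1 to 3 at 0.0309, 0.0365 and 0.0358 and all above PG9V and WT libraries. Its exact permutation p was 0.1 for PG9VN against either other group, 0.18 adjusted.

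The inducible genes Hspa1a and Hspa1b are near-identical copies, so how their reads were split is uncertain; the 120 bases before their starts differ at 1 base. Added together, they measured 26.0, 38.9 and 23.0 CPM in WT, 24.0, 23.4 and 22.8 in PG9V and 15.7, 33.4 and 19.5 in PG9VN, which was not called (-0.35 ± 0.28, adjusted p = 0.421). Counted apart and without PG9VN replicate 2, Hspa1a was called lower than in WT (-0.52, adjusted p = 0.035), and Hspa1b was not (-1.01, adjusted p = 0.0576). WT replicate 2 and PG9VN replicate 2 were the 2 high libraries. With both left out, a pair chosen after seeing the data, each copy was called lower. The added counts were not refitted without these libraries. The same 2 libraries led a list of 8 immediate early genes, at 0.74 and 0.71 log2 units above the WT mean, while the other libraries lay from -0.41 to -0.12, and they led Dnajb5, an inducible J protein, at 163 and 190 CPM against 94.0 to 113 elsewhere. Whether the neuronal activity genes have a part in the Hspa1 levels was not tested. Hspa14 was not called (0.07 ± 0.10), nor was Hspa12b (-0.20 ± 0.10).

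Of the 9 J proteins on the member list, 2 fell. Dnajc6 (auxilin), which uncoats clathrin vesicles, measured 297, 272 and 328 CPM in WT, 272, 218 and 263 in PG9V and 209, 215 and 177 in PG9VN (-0.58 ± 0.12, adjusted p = 0.0112). Dnajc5, the cysteine string protein of synaptic vesicles, measured 334, 332 and 342 CPM in WT, 314, 307 and 325 in PG9V and 296, 276 and 268 in PG9VN (-0.26 ± 0.08, adjusted p = 0.0451). For both genes, every PG9VN library was below every PG9V and WT library. Dnajc5 was called in 8 of 20 alternative analyses. Hspa12a, a divergent HSP70, measured 224, 178 and 236 CPM in WT, 205, 152 and 185 in PG9V and 136, 169 and 113 in PG9VN (-0.61 ± 0.17, adjusted p = 0.040), and its PG9V libraries overlapped both other groups.

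These brains also differed in cell type markers. Of 8 pan-neuronal genes, 2 were called lower in PG9VN against WT, and their mean stood at -0.49, -0.22 and -0.78 log2 units in PG9VN replicates 1 to 3. In thalamic markers, 6 of 7 were called lower (-0.99, -1.81 and -1.92), while all 6 activated microglia and all 6 reactive astrocyte genes were called higher; none of the listed genes was at 0 in every library. Summed neuronal counts ran from 5425 to 5572 CPM in WT and 3413 to 4806 in PG9VN. Of 7 oligodendrocyte genes 0 were called, and their mean stood at 0.18, 0.77 and -0.44 in PG9VN and 0.29, -0.19 and -0.10 in WT (replicates 1 to 3). Cryab was also highest in replicate 2 and lowest in replicate 3 of PG9VN. In WT it was lowest in replicate 3, where the oligodendrocyte list was lowest in replicate 2. The part of these markers in the chaperone results was not tested.

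The other 7 J proteins, the chaperonins and the heat shock factors were not called with all 9 libraries. The lowest adjusted p among these J proteins was that of Dnaja1, a main HSP70 partner in the cytosol (277 ± 11.2 CPM in WT, 218 ± 27.9 in PG9VN, -0.34 ± 0.11, adjusted p = 0.061), followed by Dnajb1, the partner induced by heat (-0.23 ± 0.10, adjusted p = 0.151). Dnajb4 (-0.17 ± 0.08), Dnaja2 (-0.08 ± 0.11), Dnajb2 (-0.10 ± 0.09), Dnajb6 (0.02 ± 0.13) and Dnajb5 (0.07 ± 0.26) differed by less or spread more. The mitochondrial chaperonin Hspd1 (-0.27 ± 0.09, adjusted p = 0.0605), its lid Hspe1 (0.16 ± 0.10) and the mitochondrial HSP70 Hspa9 (-0.13 ± 0.07) were not called. The cytosolic chaperonin TRiC folds actin and tubulin, and 4 of its subunits are on the member list. These were Cct2 (0.08 ± 0.09), Cct3 (-0.06 ± 0.08), Cct5 (-0.19 ± 0.12) and Tcp1 (0.02 ± 0.08), none called. The heat shock factors Hsf1 (-0.12 ± 0.09) and Hsf2 (-0.18 ± 0.11) were not called either. Without PG9VN replicate 2, 5 of these genes were called lower: Dnaja1 (-0.44, adjusted p = 0.0092), Dnajb1 (-0.33, 0.0236), Dnaja2 (-0.22, 0.0441), Hspd1 (-0.31, 0.0289) and Cct5 (-0.35, 0.00508).

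**Figure D2:**
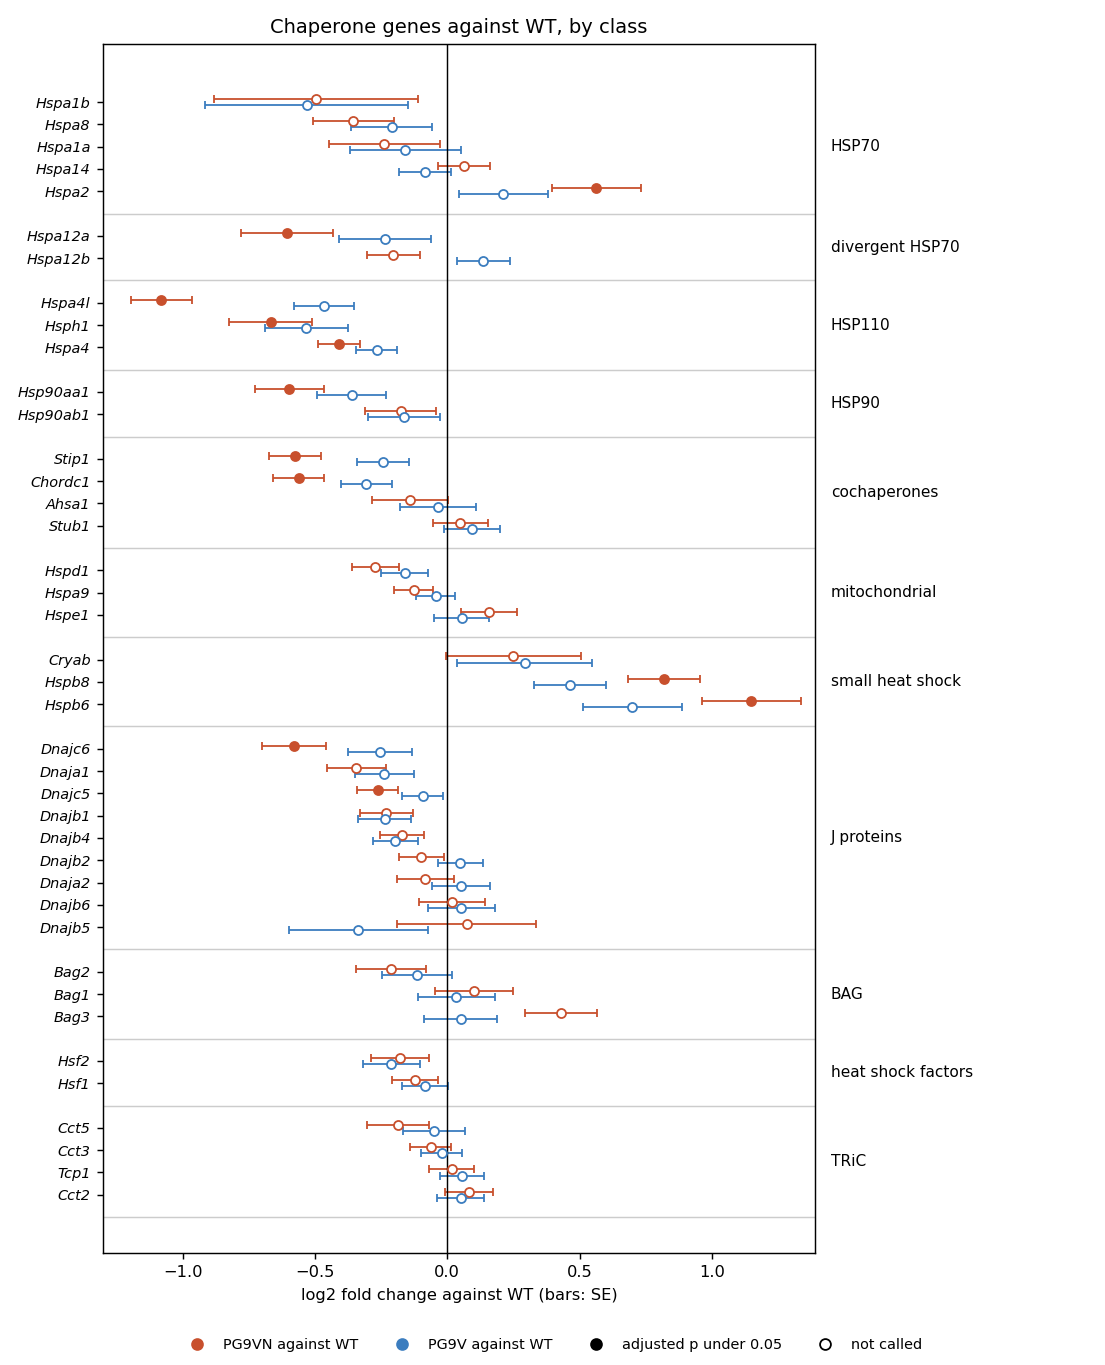
Log2 fold changes against WT with their SE (whiskers), by chaperone class; orange is PG9VN, blue PG9V, and filled points have an adjusted p under 0.05. The HSP110 genes lie at -1.08, -0.67 and -0.41 and the small heat shock genes at 1.15, 0.82 and 0.25 in PG9VN.

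PG9V against WT was measured with the same WT libraries, so the 2 comparisons share them. Here 0 of 40 members were called higher and 0 lower, where 1.62% and 0.149% of all genes were. Unadjusted p was under 0.05 for 2 members with a higher level (Hspb6 and Hspb8) and for 8 with a lower one (Chordc1, Dnajb1, Dnajb4, Hsp90aa1, Hspa4, Hspa4l, Hsph1 and Stip1), against 8.97% and 5.18% of all genes tested. DESeq2 called 1 higher (Hspb6) and 3 lower (Hspa4, Hspa4l and Hsph1), where it called 3.3% and 1.1% of all genes. The fold changes of Hspa4l and Hspb6 were -0.46 ± 0.11 and 0.70 ± 0.19, with adjusted p of 0.0912 and 0.123. The PG9V libraries of Hsph1, Hspa4, Hsp90aa1, Stip1, Chordc1 and Hspb8 did not overlap WT either. Their adjusted p values were 0.159, 0.160, 0.252, 0.315, 0.185 and 0.161. How many of all genes separate in this way was not counted. Without PG9VN replicate 2 the shared spread changed, and 1 member was called higher (3.51% of all genes) and 2 lower (1.53% of all genes). In PG9VN against PG9V, 3 members were called lower without that library (2.12% of all genes were, and 4.23% were higher).

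Levels were compared between genes only per kilobase of each gene's most abundant transcript. In WT, Hspa8 had 733 CPM per kilobase, Hsp90ab1 504, Hsp90aa1 376, Cryab 97.2 and Stip1 95.0. At the low end were Hspa12b with 3.29, Hspb6 with 3.79, Bag2 with 4.46 and the Hspa1 copies with 4.96 and 5.18. Hspb6, with 8.41 in PG9VN, thus stayed well under Cryab at 116. Hspa4l was at 28.3 in WT and 13.4 in PG9VN, and its paralog Hspa4 at 54.7 and 41.2.

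**Figure D3:**
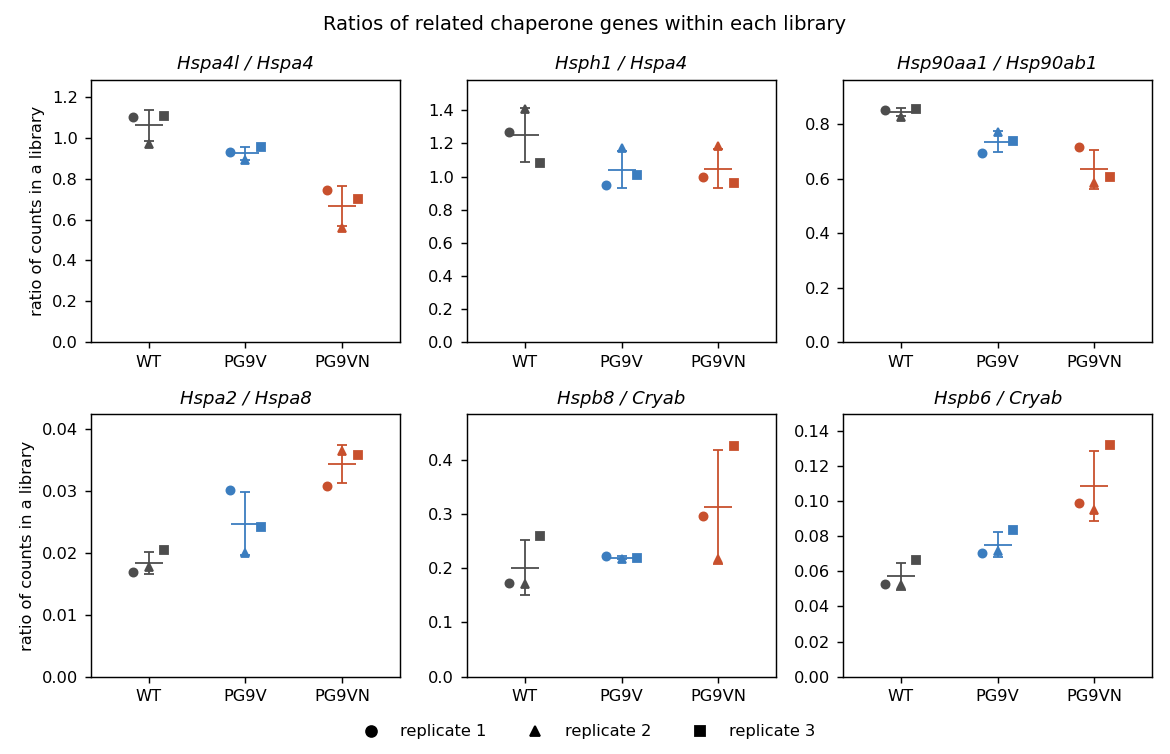
Ratios of counts of related genes within each library (unitless, axes from 0), with the mean and SD (n = 3). The Hspa4l to Hspa4 ratio has a mean of 1.06 in WT and 0.667 in PG9VN, and the Hspb6 to Cryab ratio 0.0571 and 0.108.

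At the level of single transcripts, 209 were listed for the members and 171 were tested; 3 were called higher and 10 lower in PG9VN against WT, where 2.2% and 1.06% of 53622 transcripts were. Estimated counts divide reads between overlapping transcripts, so these are less certain than gene totals. Of Dnajc6, 1 coding transcript fell from 151, 157 and 153 CPM in WT to 78.0, 71.3 and 83.7 in PG9VN (-0.98 ± 0.13, adjusted p = 0.00703), while another coding transcript stood at 98.3 ± 24.6 and 96.1 ± 24.7 (-0.03 ± 0.24, adjusted p = 0.962). The Hspb6 coding transcript went from 3.15, 2.93 and 2.87 CPM to 6.70, 13.1 and 8.26 (1.65 ± 0.25, adjusted p = 0.0118), which was 58.0% of the gene's counts in WT and 80.5% in PG9VN. A retained-intron transcript of Hsp90aa1 measured 13.9, 14.2 and 14.1 CPM in WT and 4.27, 2.49 and 2.80 in PG9VN (-2.14 ± 0.29, adjusted p = 0.00703), whereas the main coding transcript measured 809 ± 46.5 and 551 ± 107 (-0.56 ± 0.16, adjusted p = 0.103). Hspa4l fell in its 2 most abundant transcripts, from 219 ± 16.2 to 109 ± 13.9 CPM (adjusted p = 0.0032) and from 42.1 ± 1.61 to 15.7 ± 4.09 (adjusted p = 0.016).

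**Figure D4:**
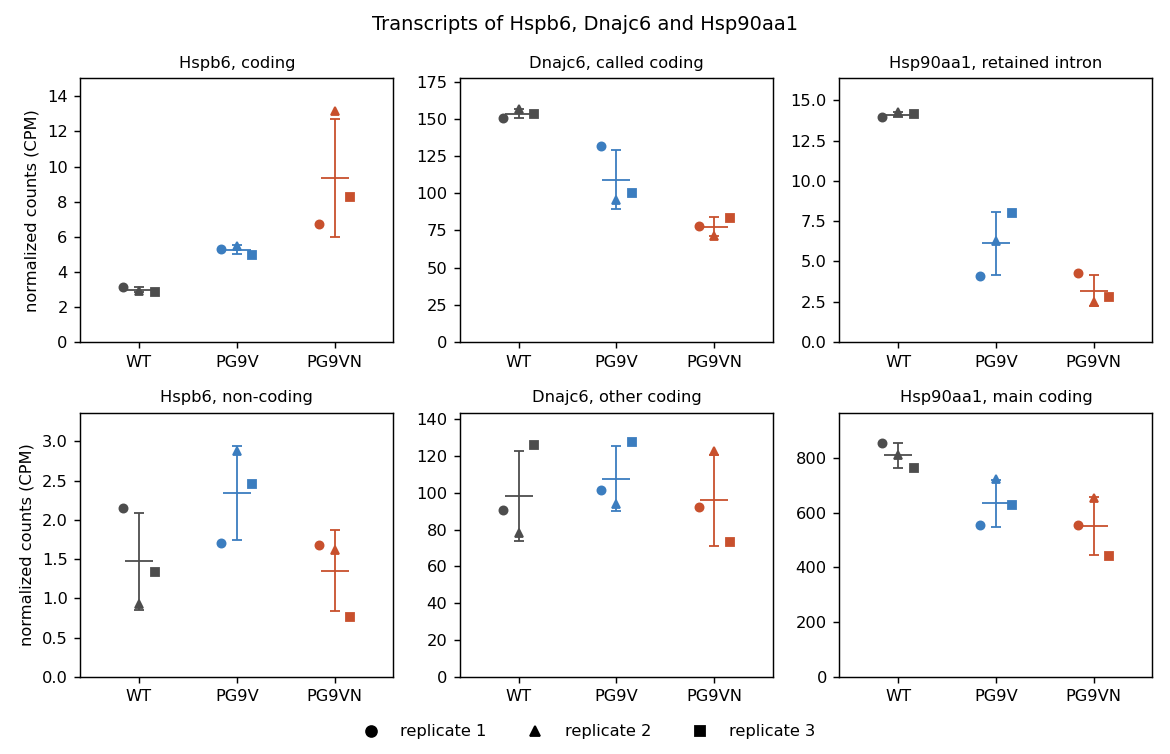
Transcripts of Hspb6, Dnajc6 and Hsp90aa1 (CPM, axes from 0; points are libraries, bars the mean and SD, n = 3). In the upper row are the transcripts called in PG9VN against WT, in the lower row other transcripts of the same genes.

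Among further chaperones, 95 of 103 were tested, and 4 were called higher and 8 lower in PG9VN against WT, or 4.21% and 8.42%, beside 11.5% and 7.22% of all genes. The lower share is near that of all genes, and the higher one is below it. Those named are among the 8 with the smallest p. Clu, the extracellular chaperone clusterin, rose from 747 ± 84.6 CPM in WT to 1843 ± 304 in PG9VN (1.30 ± 0.16, adjusted p = 0.000723), with 1250 ± 174 in PG9V. Sil1, a nucleotide exchange factor of the endoplasmic reticulum, rose from 18.3 ± 1.13 to 28.6 ± 2.27 CPM (0.64 ± 0.11, adjusted p = 0.00337). Dnajc27, a J-domain GTPase, fell by 0.51 on the log2 scale, and the prefoldin subunit Vbp1 and the HSP90 cochaperone Cdc37l1 fell by 0.38 and 0.47. Hscb, of iron-sulfur cluster assembly, and Dnajb13, an axonemal J protein, rose, Hscb by 0.89 on the log2 scale and Dnajb13 from 1.26 ± 0.307 to 3.59 ± 1.07 CPM (adjusted p = 0.0137).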

How the data were processed

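Libraries were stranded and made from poly(A) RNA, per the labels' protocols. The table the authors deposited, of 105129 transcripts in 9 mice, was read as estimated counts from its values: 59.6% were fractional (tolerance 0.001) and totals differed between libraries. Whether a scaling was applied is not stated. The submitters' processing notes name build mm39, kallisto 0.43.1, HISAT2 2.0.5, FastQC and Trimmomatic 0.33, but not which tool counted. The test had been planned on gene counts, so estimated counts were summed per gene and rounded. Library totals ran from 27150500 to 35349217. A floor of 3 counts, 0.0849 to 0.11 CPM, covers counting error only.

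edgeR 4.0.16 in R 4.3.3 (TMM scaling, genes kept by filterByExpr, a robust quasi-likelihood fit of all 9 libraries with a coefficient for each genotype) tested 17398 genes. Benjamini-Hochberg adjustment was over all of them at 0.05, and the code was tested on simulated data. Transcripts were fitted likewise. Marker lists are means of log2(CPM + 1) differences from the WT mean. Every member is named; of further chaperones, the 8 with the smallest p among those called, at 1 CPM or more, are named (Cct6a was not analysed here, and 1 gene the rule takes is not reported here). The members and lists were chosen with earlier results of these data known. Alternatives used DESeq2 1.42.0, limma-voom (limma 3.58.1), other scalings and filters, fewer libraries, and the most abundant transcript.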

Additional observations from a re-analysis of the deposited data

How the results depend on the processing

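No paired analysis was possible because the labels give mouse IDs and no pairing of animals. Under 20 alternatives, Hspa4l, Chordc1, Stip1, Hspb6 and Hspb8 kept their calls in PG9VN against WT in all 20; Hspa4 and Dnajc6 kept theirs in 19, Hsp90aa1 in 18, Hsph1 in 15, Hspa12a in 12, Dnajc5 in 8 and Hspa2 in 7. No called member changed direction. Members called lower in PG9VN against WT numbered 5 to 18 when 1 library was left out (5 without WT replicate 1, where Hsp90aa1, Hsph1, Hspa12a and Dnajc5 were lost, 18 without PG9VN replicate 2), 4 in only the libraries with Y-linked counts (without WT replicate 1 and PG9V replicate 2) and 18 without WT replicate 2 and PG9VN replicate 2, a pair chosen after seeing the data. In PG9V against WT, 1 was called higher and 3 lower by DESeq2 and by the fit of the 2 groups alone, 0 to 1 higher and 0 to 2 lower with 1 library left out, and 1 higher and 1 lower without the pair. In PG9VN against PG9V, DESeq2 called 2 lower, and the fit of the 2 groups alone and the Y-linked libraries called 0. Leaving out 1 library gave 0 to 3, and leaving out the pair 6. The number of all genes called also depended on the alternative. Over the comparisons and both directions, 56 such counts moved and 58 stayed the same within the limit set. Shares of all genes are given above only for some alternatives, so the other member counts cannot be set apart from that dependence.

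Class medians moved as follows with 1 library left out. For HSP70 they ran from -0.52 to -0.070 in PG9VN against WT and from -0.30 to 0.17 in PG9VN against PG9V. For J proteins they ran from -0.25 to -0.14 in PG9VN against WT, -0.21 to -0.10 in PG9V against WT and -0.18 to -0.015 in PG9VN against PG9V. Without the pair, divergent HSP70 stood at -0.54 in PG9VN against WT, HSP70 at -0.31 and J proteins at -0.19 in PG9VN against PG9V, and J proteins at -0.10 in PG9V against WT, where total counts gave -0.22 and the Y-linked libraries -0.17. The cause was not tested in any of these. Groups of 3 limit the precision.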
